A study of Mus musculus with 4 samples.

Results

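Of 11771 genes measured in mouse colonic organoids, 47 were lower in the butyrate-treated than in the untreated culture by at least 2-fold on both day 2 and day 3. They were chosen by that difference. A gene counted as measured where its mean level over the 4 libraries was at least 2 CPM (the count divided by the library total and multiplied by 1000000), and a member where the log2 of butyrate over untreated CPM, with 0.05 CPM added to each, was -1 or less on each day. The table held 36144 gene names, of which 26 that had become calendar dates or were listed more than once were left out. Log2 differences below are on this scale, and a 95% counting interval (exact Clopper-Pearson on the pair of counts) follows in brackets. It covers counting error only, not the variation between cultures.

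The organoids were grown from the colon of a 24-week-old male mouse, labelled WT, whereas the study's own legend describes the model as Hes1-GFP, and they were used at passage 3. All 4 cultures were in crypt medium with EGF at 40 ng/ml, Noggin at 200 ng/ml, R-spondin at 500 ng/ml, B27, N2, the GSK3 inhibitor CHIR99021 at 3 µM and the ROCK inhibitor Y-27632 at 10 µM. The groups were untreated organoids on day 2, organoids given 2 mM sodium butyrate for 48 h, untreated organoids on day 3, and organoids given 2 mM sodium butyrate for 72 h. There was 1 library per group, so no p-value is given, and no difference below has a replicate check. Organoids of this kind hold epithelium without stroma, blood vessels or a microbiota, and a factor that such cells supply is present only as the medium provides it.

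Butyrate is a short chain fatty acid that gut bacteria make from dietary fibre. It is a fuel of colonocytes, a ligand of the G protein-coupled receptors FFAR2 and FFAR3, and an inhibitor of class I and II histone deacetylases, whose inhibition can raise or lower the transcription of many genes. The colonic crypt holds stem cells at its base and, above them, absorptive colonocytes and the secretory lineages: mucus-producing goblet cells, enteroendocrine cells, tuft cells and the deep crypt secretory cells that take the place of Paneth cells in the colon.

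Library totals were between 20790225 and 24207840 counts, and the mitochondrial genome took 14.1% to 18.4% of them. The 9 epithelial markers, among them *Epcam* and *Cdh1*, were all measured, and their summed level was 8265, 8787, 8415 and 7643 CPM in the untreated day 2, butyrate day 2, untreated day 3 and butyrate day 3 libraries, in that order. Of 10 immune cell markers, 1 (*Cd68*, a lysosomal protein of macrophages and other cells) was measured, and *Adgre1* and *Tyrobp* were at 0 in all 4 libraries. The summed immune list was 8.81, 57.0, 10.2 and 23.9 CPM in the same order, of which *Cd68* alone gave 5.93, 54.1, 7.29 and 20.2 CPM. This list was therefore higher in both butyrate libraries, opposite in direction to the 47 genes. The summed lists of fibroblasts (6.20 to 8.18 CPM), endothelium (3.32 to 4.59 CPM), enteric neurons and glia (3.84 to 6.35 CPM) and smooth muscle (0.0464 to 0.413 CPM) stayed low, with *Col3a1*, *Lum*, *S100b* and *Sox10* at 0 throughout. The part of these lists in the differences below was not tested. In bulk RNA, fewer cells of a type and less RNA per cell cannot be told apart.

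On day 2, 189 of the 11771 genes (1.61%) were at least 2-fold lower with butyrate, and on day 3 176 (1.5%). The 47 genes that met the threshold on both days were 0.399% of those measured, 24.9% of the day 2 list and 26.7% of the day 3 list. The reverse was more frequent, with 180 measured genes at least 2-fold higher on both days. The median log2 difference of the 47 genes was -1.64 on day 2 (range -3.22 to -1.02), where that of all measured genes was -0.02. On day 3 it was -1.61, beside 0.05 for all measured genes. The day 3 values ran from -5.60 (*Retnlb*) to -1.0 among genes with counts above 0. For the 2 genes with 0 counts in the butyrate library the value depends on the added 0.05 CPM, and a floor of 3 counts gives bounds of -3.69 (*Rps13-ps1*) and -4.19 (*Zfp708*), with which the median was again -1.61. In 46 of the 47 genes both butyrate levels lay below both untreated levels, which also held for 19.4% of all measured genes. The exception was the pseudogene *Gm28439*. The rule set these values, and nothing is read from them.

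**Figure D1:**
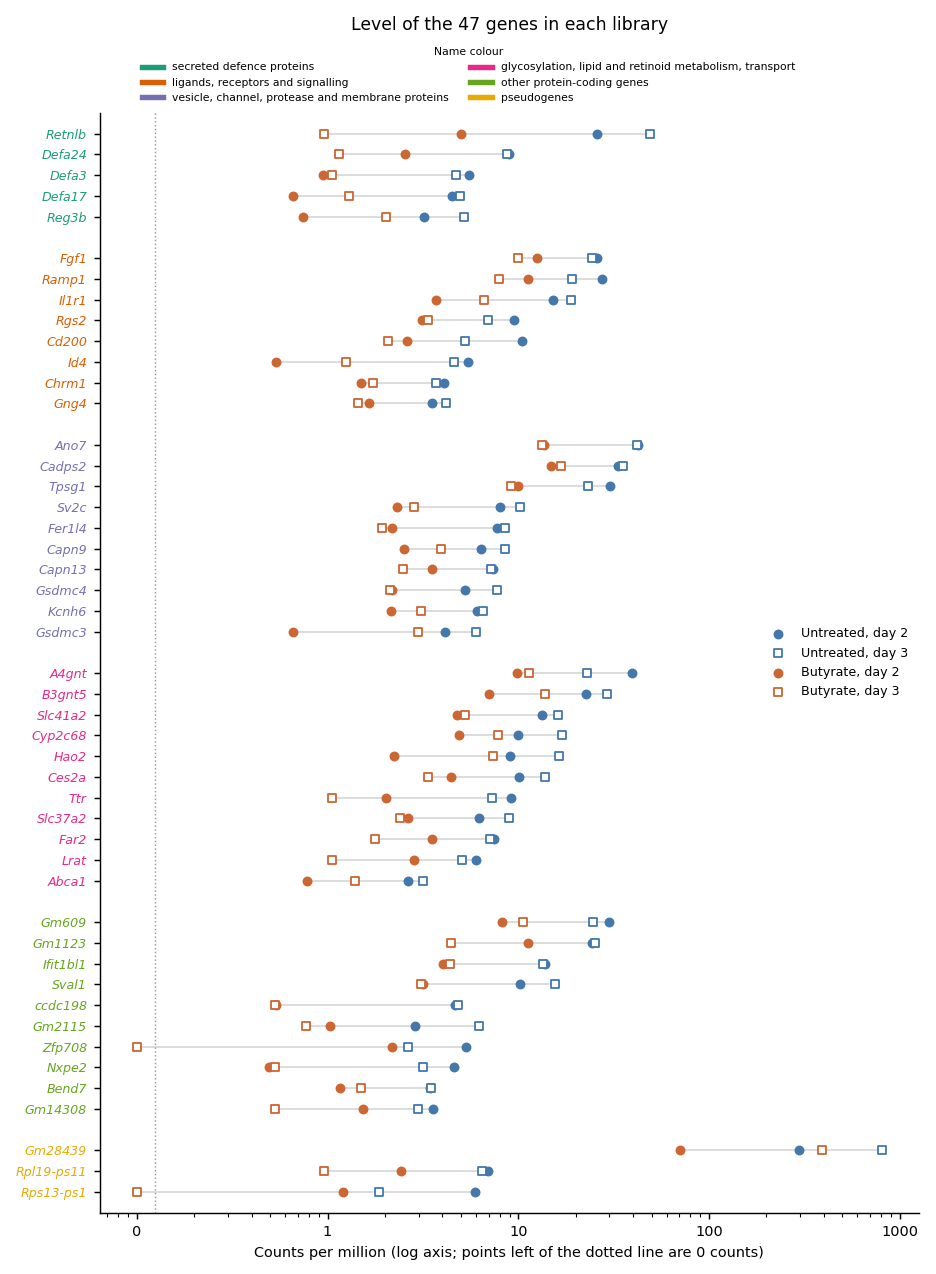
Level of each of the 47 genes in the 4 libraries, in CPM on a log axis, with untreated libraries in blue, butyrate libraries in orange, day 2 as filled circles and day 3 as open squares. Genes are grouped by role and ordered by their untreated level. In 46 genes both orange points lie left of both blue points, and *Zfp708* and *Rps13-ps1* have 0 counts in the butyrate library of day 3.

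Most of the 47 genes were expressed at a low level. Their median of the mean CPM was 5.11, against 32.1 over all measured genes, 21 were under 5 CPM and 12 at 10 CPM or above. *Abca1* lay at the minimum with 2.00 CPM. By annotation, 44 were protein-coding (93.6%, against 97.7% of measured genes) and 3 were pseudogenes (6.38%, against 1.95%). Their median exon length was 3321 bases, against 4470. Per kb of exon, the pseudogene *Gm28439* had the highest mean level at 447 CPM per kb, followed at a distance by *Retnlb* at 29.1, *Tpsg1* at 13.1, *Sval1* at 13.0 and *Defa24* at 12.8. For every one of the 47 genes the counting interval lay below 0 on both days, and for 20 it lay wholly at or below -1 on both. The genes just inside the threshold were *Gsdmc3* (-2.55 and -1.0 on days 2 and 3), *A4gnt* (-1.99 and -1.01) and *Cyp2c68* (-1.02 and -1.12). Just outside were *Fyb* (-1.77 and -0.99), *Slit2* (-1.58 and -0.99) and *Rasgrf2* (-1.13 and -0.97).

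Promoter sequence was looked up for the 47 genes in RefSeq (GRCm38.p6, 250 bases before to 50 bases after the start) and found for 34. Since this is under 80% of the genes, a comparison of their promoters with those of other genes is void, and the shares that follow only describe the windows at hand. Both strands were searched for 12 short motifs. The motif GATAAG was in the windows of 7 of the 34 genes (20.6%) and in 4.80% of the windows of 9191 measured genes. GGGCGG, the GC box, was in 11 (32.4%, against 65.9%). TATAAA was in 3 (8.82%, against 6.81%), CACGTG in 3 (8.82%, against 10.4%), TTGNNCAA in 3 (8.82%, against 5.26%) and TGANTCA in 2 (5.88%, against 4.78%). GGGACTTTC (0.392% of all windows), CAAAGTC (3.61%) and TGTTTAC (2.52%) were each in 1, and TTTATGG (1.47%), AAGGTCA (3.09%) and ATCAAAG (2.40%) in none. A GGGCGG match can lie within a longer GC-rich run, and none of the other motifs contains another of them. The windows of 5 genes whose values are given below are printed as examples, and all 5 hold a motif, so they do not stand for the 34. GC content was 73.3% for *Id4* and 43.7% for *A4gnt*, and it ran from 32.3% to 79.7% over the 34. Each printed window holds the 250 bases before the RefSeq start, 5′ to 3′ on the gene's strand, with motif letters in capitals. They lie at chr13:48260866-48261115 (+ strand, *Id4*), chr2:156052994-156053243 (- strand, *Fer1l4*), chr17:25369023-25369272 (+ strand, *Tpsg1*), chr15:63878559-63878808 (- strand, *Gsdmc3*) and chr9:99612252-99612501 (+ strand, *A4gnt*).
Id4: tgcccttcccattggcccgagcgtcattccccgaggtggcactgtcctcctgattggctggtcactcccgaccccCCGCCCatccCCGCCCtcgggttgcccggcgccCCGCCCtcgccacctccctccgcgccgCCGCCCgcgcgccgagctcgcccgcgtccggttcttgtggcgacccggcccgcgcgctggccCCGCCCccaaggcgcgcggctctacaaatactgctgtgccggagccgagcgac
Fer1l4: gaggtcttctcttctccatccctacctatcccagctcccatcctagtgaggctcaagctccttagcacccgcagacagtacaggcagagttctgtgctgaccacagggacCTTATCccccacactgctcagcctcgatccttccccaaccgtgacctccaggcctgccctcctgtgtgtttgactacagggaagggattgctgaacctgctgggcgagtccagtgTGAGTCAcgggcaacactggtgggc
Tpsg1: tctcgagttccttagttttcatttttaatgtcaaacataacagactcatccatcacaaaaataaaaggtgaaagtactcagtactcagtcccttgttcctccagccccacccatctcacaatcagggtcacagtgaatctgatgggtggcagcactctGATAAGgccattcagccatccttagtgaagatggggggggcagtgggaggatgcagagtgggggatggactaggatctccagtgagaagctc
Gsdmc3: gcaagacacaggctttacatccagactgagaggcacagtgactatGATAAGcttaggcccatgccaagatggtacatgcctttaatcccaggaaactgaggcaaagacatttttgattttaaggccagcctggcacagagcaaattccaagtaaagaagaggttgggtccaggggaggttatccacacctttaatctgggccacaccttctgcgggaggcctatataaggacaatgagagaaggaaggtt
A4gnt: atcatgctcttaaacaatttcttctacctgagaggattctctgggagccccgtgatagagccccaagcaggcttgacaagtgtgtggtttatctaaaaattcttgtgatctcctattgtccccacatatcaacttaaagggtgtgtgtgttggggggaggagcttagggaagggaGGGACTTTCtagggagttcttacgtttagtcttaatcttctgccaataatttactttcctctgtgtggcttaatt
The capitals mark CCGCCC, the reverse complement of GGGCGG, in *Id4*, CTTATC (that of GATAAG) and TGAGTCA in *Fer1l4*, GATAAG in *Tpsg1* and *Gsdmc3*, and GGGACTTTC in *A4gnt*. A match is not a bound site.

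**Figure D2:**
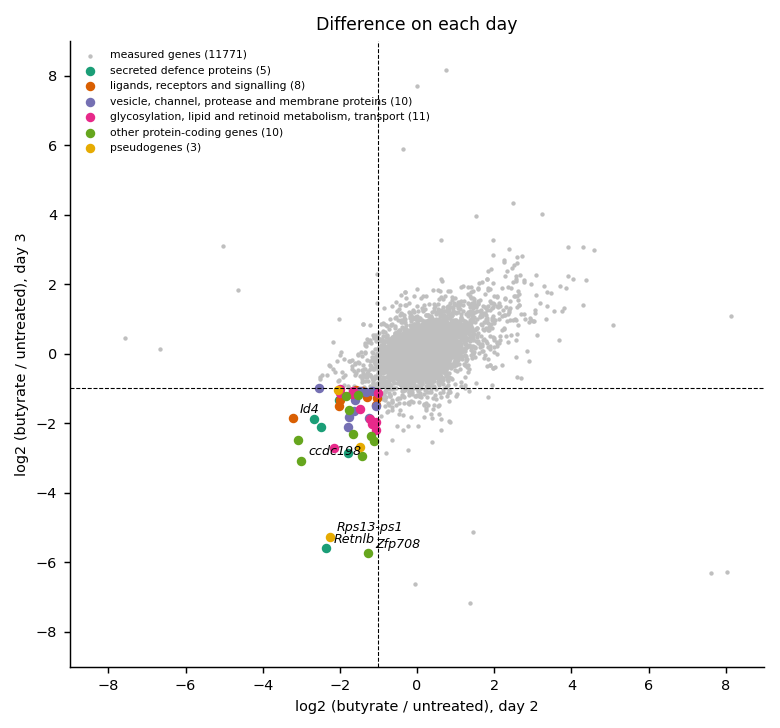
Log2 of butyrate over untreated CPM on day 2 (horizontal) and day 3 (vertical) for the 11771 measured genes in grey and the 47 genes in colour by role, with the threshold of -1 as dashed lines. The coloured points fill the lower left corner by the rule, and *Retnlb* lies at -5.60 on day 3. *Zfp708* and *Rps13-ps1* had 0 butyrate counts on day 3, so their vertical positions are set by the 0.05 CPM added, and their bounds are -4.19 and -3.69.

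Secreted defence proteins made up 5 of the 47 genes, with median log2 differences of -2.35 on day 2 and -2.10 on day 3. *Retnlb* encodes resistin-like molecule beta, an antimicrobial protein that goblet cells secrete into the lumen. Its level was 25.9 CPM in the untreated and 5.04 CPM in the butyrate culture on day 2, and 49.1 and 0.962 CPM on day 3. It was thus 5.10-fold lower on day 2 and 48.6-fold lower on day 3 (log2 -2.35 [-2.66 to -2.08] and -5.60 [-6.39 to -5.04]), and the day 3 value rests on 1158 untreated and 20 butyrate counts. With 1 CPM added in place of 0.05 CPM the log2 differences were -2.16 and -4.67. *Retnlb* was higher on day 3 than on day 2 without butyrate (log2 0.92 [0.78 to 1.07]) and lower on day 3 than on day 2 with it (-2.33 [-3.15 to -1.70]). *Reg3b*, a C-type lectin that binds bacteria, had 3.20 and 0.744 CPM on day 2 and 5.17 and 2.02 CPM on day 3, which is log2 -2.03 [-2.94 to -1.34] and -1.34 [-1.90 to -0.84], or -1.27 and -1.03 with 1 CPM added. Its close relative *Reg3g* had 68, 23, 79 and 51 counts in the untreated day 2, butyrate day 2, untreated day 3 and butyrate day 3 libraries. It was lower on day 2 (-1.68), and its day 3 interval included 0 (-0.44 [-0.99 to 0.08]).

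The other 3 defence genes were alpha-defensins, the small antimicrobial peptides of Paneth cell granules. *Defa3* had 5.52 and 0.950 CPM on day 2 and 4.71 and 1.06 CPM on day 3. *Defa17* had 4.50 and 0.661 CPM, then 4.96 and 1.30 CPM. *Defa24* had 8.95 and 2.56 CPM, then 8.74 and 1.15 CPM. With 1 CPM added the differences were -1.74 and -1.47 for *Defa3*, -1.73 and -1.38 for *Defa17* and -1.48 and -2.18 for *Defa24*. Between the untreated libraries the intervals of all 3 included 0. In the butyrate libraries *Defa24* was lower on day 3 than on day 2 (-1.12 [-1.89 to -0.45]) and *Defa17* higher (0.92 [0.03 to 1.96]). These genes lie within 446 kb of each other on chromosome 8. *Defa17* shares 92.4% of its 31-base words with *Defa3*, whereas *Defa24* shares 19.5% of its words with *Defa3* and 46.3% with *Defa30*. Of the 31-base words in its transcripts, 93.2% in *Defa17*, 92.6% in *Defa3* and 57.1% in *Defa24* also occur in other genes, so the split of reads between them is uncertain. Summed over all 22 alpha-defensin genes in the table, counts were 489 and 276 on day 2 and 541 and 180 on day 3, or log2 -0.99 [-1.21 to -0.78] and -1.41 [-1.66 to -1.16]. The 19 alpha-defensin genes outside the 47 went the other way on day 2, from 80 to 175 counts (0.96 [0.57 to 1.36]), and had 107 counts in each library of day 3.

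Ligands, receptors and intracellular signalling proteins made up 8 of the genes, with medians of -1.50 and -1.30. *Id4*, which binds basic helix-loop-helix transcription factors and keeps them off DNA, had 117 and 13 counts on day 2 and 109 and 26 on day 3. Its difference was -3.22 [-4.29 to -2.51] on day 2, or -2.06 with 1 CPM added in place of 0.05 CPM, and -1.85 [-2.56 to -1.26] on day 3. Of the 3 measured relatives, *Id2* was lower on day 2 (-1.23) and less so on day 3 (-0.45), while *Id1* (-0.09 and 0.06) and *Id3* (-0.19 and 0.13) had intervals that include 0. Among 18 measured BMP and TGF-beta pathway genes, *Id4* was the single one below the threshold on both days, beside 0.399% of all measured genes. In all 3 were so on day 2 and 3 on day 3, beside 1.61% and 1.5%. *Bmp3* (-0.93 and -1.25) and *Bmp2* (-0.64 and -1.03), both ligands, passed it on day 3 only, *Id2* and *Bambi*, a decoy receptor (-1.44 and -0.47), on day 2 only, and the list's medians were -0.21 and -0.06.

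*Il1r1*, the signalling receptor of interleukin-1, had 15.3 and 3.72 CPM on day 2 and 19.0 and 6.64 CPM on day 3 (-2.02 [-2.39 to -1.70] and -1.51 [-1.81 to -1.24]). The gene of its co-receptor, *Il1rap*, was not lower (0.15 and 0.54). *Ramp1*, the accessory protein with which the calcitonin receptor-like receptor binds the neuropeptide CGRP, had 27.6 and 11.2 CPM, then 19.1 and 7.94 CPM, and the receptor itself (*Calcrl*) had 28 to 30 counts in every library. *Cd200*, a surface glycoprotein whose receptor restrains myeloid cells, had 10.5 and 2.60 CPM, then 5.26 and 2.07 CPM. Its untreated level was itself lower on day 3 than on day 2 (-0.99 [-1.33 to -0.68]). *Fgf1*, a growth factor without a signal peptide, had 25.9 and 12.5 CPM, then 24.3 and 10.0 CPM (-1.05 and -1.28). It was the single gene of 22 measured EGF, FGF and ERK pathway genes to pass on both days, beside 0.399% of all measured genes. On that list 14 of the 22 were below 0 on both days, beside 27.7% of all measured genes, with medians of -0.46 and -0.06.

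The remaining 3 signalling genes act at G protein-coupled receptors. *Chrm1*, the muscarinic M1 acetylcholine receptor, had 88 and 36 counts on day 2 and 87 and 36 on day 3. *Chrm3*, the M3 receptor, lay under the level minimum and had 56 and 16, then 58 and 5 counts (-1.90 and -3.11). *Chrm4*, also under that minimum, went the other way on day 2. It had 5 and 72, then 13 and 3 counts (3.42 [2.39 to 5.35] and -1.63 [-4.39 to -0.07]). *Rgs2*, which shortens the signal of Gq proteins, had 9.46 and 3.14 CPM, then 6.96 and 3.37 CPM, and *Gng4*, a G protein gamma subunit, had 3.52 and 1.65 CPM, then 4.16 and 1.44 CPM. The medians of 6 other measured RGS genes were 0.15 and 0.64 and those of 6 other gamma subunit genes 0.02 and 0.07. Among them *Rgs17* was lower on day 3 (0.22 and -1.55) and *Gng2* on both days (-0.72 [-1.40 to -0.09] and -0.62 [-1.25 to -0.03]).

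Proteins of vesicles, channels, proteases and membranes formed a group of 10, with medians of -1.54 and -1.42. *Ano7*, a member of the anoctamin (TMEM16) family, had nearly the same levels on both days, at 42.6 and 13.6 CPM on day 2 and 42.1 and 13.4 CPM on day 3, which is -1.64 [-1.83 to -1.46] and -1.65 [-1.85 to -1.46]. The 5 other measured anoctamins had medians of 0.20 and 0.19. *Cadps2*, which primes dense-core vesicles for release, had 33.5 and 14.9 CPM, then 35.6 and 16.8 CPM. *Sv2c*, a glycoprotein of secretory vesicles, had 8.02 and 2.31 CPM, then 10.2 and 2.84 CPM, and *Fer1l4*, of the ferlin family, had 7.74 and 2.19 CPM, then 8.52 and 1.92 CPM. Of the 16 measured enteroendocrine hormone and granule genes 0 were 2-fold lower on both days, near the 0.399% of all measured genes. On day 3 alone 2 were (*Insl5* at -1.42 and *Pyy* at -1.40), beside 1.5% of all measured genes. Another 2 were 2-fold higher on day 2 (*Resp18* and *Tph1*, each at 1.23), as were 493 of the 11771 measured genes. The list medians were 0.10 and -0.64. *Kcnh6*, a voltage-gated potassium channel, had 6.07 and 2.15 CPM, then 6.57 and 3.08 CPM.

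The proteases were *Tpsg1*, a membrane-anchored tryptase, and the calpains *Capn9* and *Capn13*, which are calcium-dependent cysteine proteases. *Tpsg1* had 30.4 and 10.00 CPM on day 2 and 23.2 and 9.19 CPM on day 3 (-1.60 [-1.82 to -1.39] and -1.33 [-1.58 to -1.10]). *Capn9*, the digestive tract calpain, had 6.40 and 2.52 CPM, then 8.57 and 3.94 CPM, and *Capn13* had 7.37 and 3.51 CPM, then 7.17 and 2.50 CPM. *Capn8*, with which *Capn9* forms a complex, was lower on both days without reaching the threshold on day 3 (-1.30 [-1.74 to -0.90] and -0.58 [-1.0 to -0.18]). The 7 measured calpains outside the 47, *Capn8* included, had medians of -0.31 and -0.08.

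*Gsdmc3* and *Gsdmc4* encode gasdermin C proteins, pore-forming proteins that are cut to become active, and lie 12.7 kb apart on chromosome 15. *Gsdmc3* had 89 and 16 counts on day 2 and 142 and 62 on day 3, *Gsdmc4* 114 and 53, then 183 and 44. With 1 CPM added *Gsdmc3* was at -1.63 and -0.82 and *Gsdmc4* at -0.98 and -1.49, so each was above the threshold on 1 day. They share 59.5% and 51.2% of their words with other genes. Summed over the 4 *Gsdmc* genes the counts were 406 and 157, then 710 and 326, or log2 -1.54 [-1.81 to -1.27] and -0.94 [-1.14 to -0.75]. The neighbouring *Gsdmc2* was lower on both days (-1.38 and -0.64), and of the gasdermins at other loci *Gsdmd* was at 0.47 and 0.02 and *Gsdme* at -0.10 [-0.39 to 0.19] and -0.61 [-0.97 to -0.26].

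**Figure D3:**
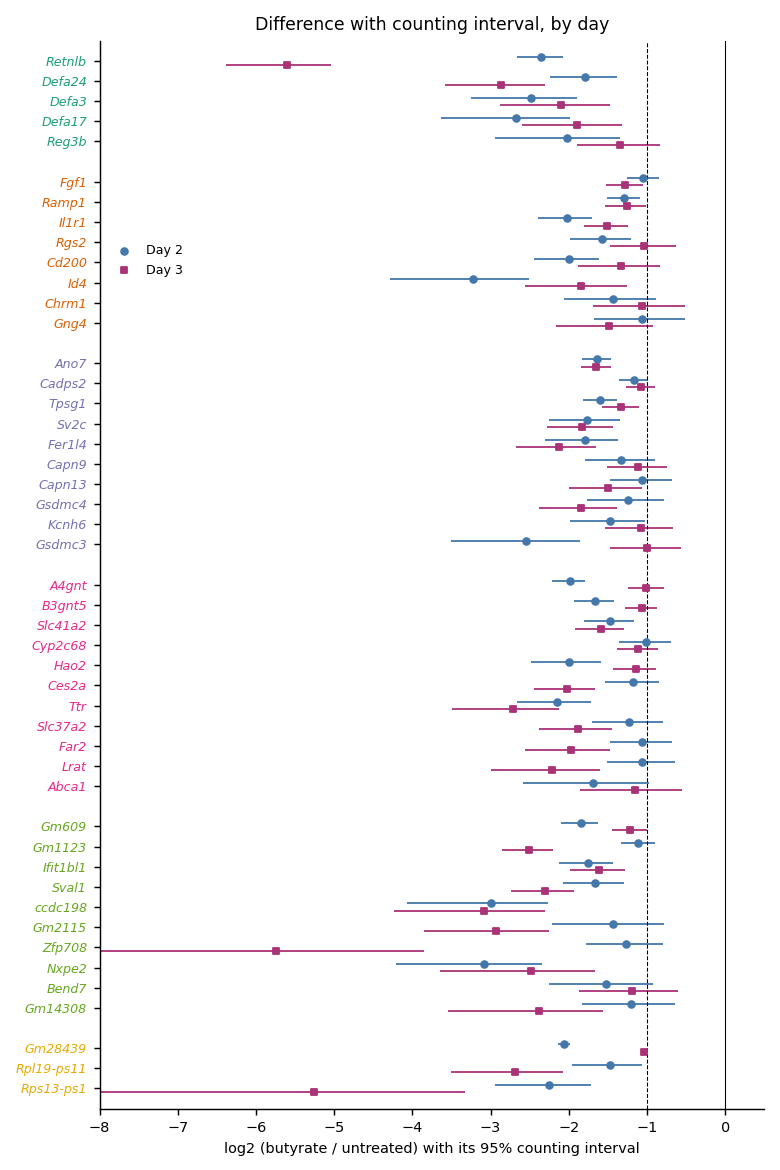
Log2 of butyrate over untreated CPM for each of the 47 genes on day 2 (blue circles) and day 3 (purple squares) with the 95% counting interval, grouped by role as in the plot of levels. The dashed line is the threshold of -1. The day 3 lines of *Zfp708* and *Rps13-ps1* have no lower end, because their butyrate count was 0.

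Glycosylation, lipid and retinoid metabolism and transport accounted for 11 genes, with medians of -1.48 and -1.59. *A4gnt* adds the terminal alpha1,4-linked N-acetylglucosamine of gland mucins. Its level was 39.4 and 9.87 CPM on day 2 and 22.9 and 11.4 CPM on day 3, so that the difference was -1.99 [-2.21 to -1.79], then -1.01 [-1.24 to -0.79]. The butyrate level was about the same on both days (0.20 [-0.06 to 0.47]) and the untreated level was lower on day 3 (-0.78 [-0.94 to -0.63]). *B3gnt5*, which starts the lacto-series glycolipids, had 22.6 and 7.06 CPM, then 29.1 and 13.9 CPM. Of its 5 measured relatives, *B3gnt6* was higher with butyrate (0.73 and 1.66), and *B3gnt3* was slightly lower (-0.14 and -0.32).

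*Ttr*, transthyretin, the carrier of thyroxine and of retinol-binding protein, had 9.13 and 2.02 CPM on day 2 and 7.25 and 1.06 CPM on day 3 (-2.15 [-2.66 to -1.72] and -2.72 [-3.49 to -2.13], or -1.74 and -2.0 with 1 CPM added). *Lrat*, which stores retinol as its ester, had 5.98 and 2.85 CPM, then 5.09 and 1.06 CPM. *Rbp4*, which carries retinol in blood with transthyretin, had 38, 25, 48 and 40 counts in the untreated day 2, butyrate day 2, untreated day 3 and butyrate day 3 libraries, and *Stra6*, a retinol uptake receptor, was higher on day 2 (1.38 [0.95 to 1.85]). *Far2*, a fatty acyl-CoA reductase, had 7.46 and 3.55 CPM, then 7.13 and 1.78 CPM, while the related *Far1* was at -0.18 and -0.29. *Abca1*, the cholesterol exporter, had 57 and 19 counts, then 75 and 29. *Hao2*, a peroxisomal hydroxyacid oxidase, had 9.09 and 2.23 CPM, then 16.3 and 7.36 CPM, and was higher on day 3 in both kinds of culture (0.84 untreated and 1.70 with butyrate).

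*Ces2a*, a carboxylesterase, had 10.1 and 4.42 CPM on day 2 and 13.9 and 3.37 CPM on day 3 (-1.18 [-1.54 to -0.85] and -2.03 [-2.44 to -1.67]). *Cyp2c68*, a cytochrome P450, had 10.0 and 4.92 CPM, then 17.0 and 7.79 CPM. It shares 62.0% of its words with other genes, and its sum with 3 close copies was -0.21 [-0.43 to 0.02] on day 2 and -1.39 [-1.61 to -1.18] on day 3. Among its relatives, *Cyp2c65* (-0.24 and -1.43) and *Cyp2c69* (0.61 and -1.87) were 2-fold lower on day 3 alone. Of the transporters, *Slc37a2*, an exchanger of sugar phosphates, had 6.26 and 2.64 CPM, then 8.99 and 2.40 CPM, and *Slc41a2*, a magnesium transporter, had 13.4 and 4.79 CPM, then 16.1 and 5.29 CPM. *Slc37a2* was the single one of 33 measured solute carriers and channels of the colon on the list to pass on both days, beside 0.399% of all measured genes. On day 2 it was again the single one, and on day 3 there were 6 in all, beside 1.61% and 1.5%.

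A further 10 protein-coding genes fell in none of these roles, with medians of -1.59 and -2.43. *ccdc198*, named for a coiled-coil domain and written in lower case in the table, had 100 and 13 counts on day 2 and 114 and 11 on day 3. It was 7.98-fold lower on day 2 and 8.44-fold lower on day 3 (-3.0 [-4.07 to -2.27] and -3.08 [-4.23 to -2.30]), and the values were -1.87 and -1.93 with 1 CPM added in place of 0.05 CPM. *Nxpe2*, of a family named for neurexophilin-like domains, had 99 and 12, then 75 and 11 counts (-3.09 and -2.48, or -1.90 and -1.45 with 1 CPM added). *Gm609* had 29.9 and 8.22 CPM, then 24.7 and 10.6 CPM, and lies 2.71 kb from *Cd200* on chromosome 16, on the same strand. *Gm1123* had 24.5 and 11.3 CPM, then 25.4 and 4.43 CPM, and *Sval1*, a seminal vesicle antigen-like protein, had 10.2 and 3.18 CPM, then 15.5 and 3.08 CPM. *Ifit1bl1*, of the interferon-induced Ifit family, had 13.8 and 4.05 CPM, then 13.5 and 4.38 CPM. Of its measured relatives, *Ifit1bl2* was at 0.03 and -0.12, *Ifit1* at -0.87 and 0.64 and *Ifit2* at 1.48 and 1.57. No gene of the 11 measured on the interferon list was 2-fold lower on either day, a count near the shares of 1.61% and 1.5% over all measured genes. *Bend7*, which has a BEN domain, had 74 and 28, then 82 and 31 counts, and *Gm2115* had 62 and 25, then 146 and 16 (-0.93 and -2.02 with 1 CPM added).

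*Zfp708*, a zinc finger protein gene, had 115 and 53 counts on day 2 and 62 and 0 on day 3, which is at least 18.2-fold lower on day 3 against a floor of 3 counts in the butyrate library. *Gm14308* had 77 and 37, then 70 and 11 counts. They share 95.6% and 98.6% of their words with other genes. The sum of *Zfp708* and 4 close copies was -0.20 [-0.41 to 0.02] and 0.11 [-0.13 to 0.36], and that of *Gm14308* and 8 copies -0.26 and 0.35. Neither sum was therefore lower on both days.

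The 3 pseudogenes were all near copies of expressed genes. *Rps13-ps1*, a processed copy of a ribosomal protein gene, had 128 and 29, then 44 and 0 counts, at least 12.9-fold lower on day 3 against the same floor. It made up 0.897% of its sum with 6 copies, and that sum was 0.02 [-0.03 to 0.07] and 0.20 [0.14 to 0.26]. *Rpl19-ps11* had 149 and 59, then 153 and 20 counts, and its sum with 8 copies was 0.07 and 0.24. *Gm28439* is a nuclear copy of mitochondrial sequence, and 100% of its words occur in *mt-Nd4*. It had 295 and 70.8 CPM on day 2 and 808 and 393 CPM on day 3, so its butyrate level on day 3 was above its untreated level on day 2. Summed with *mt-Nd4* the differences were -0.25 [-0.26 to -0.24] and -0.28 [-0.29 to -0.27]. In all, 11 of the 47 genes had at least 50% of their words in other genes, 6 had 5% to 50%, and 30 had less than 5%. The sums with copies were below -1 on one day each for *Gsdmc3*, *Gsdmc4* and *Cyp2c68*, and on neither day for *Rps13-ps1*, *Rpl19-ps11*, *Gm14308*, *Zfp708* and *Gm28439*. The sums of *Defa3*, *Defa17* and *Defa24* say little, as 83.5% to 96.9% of their counts belong to these 3 genes themselves. Of the *Gsdmc* sum 44.0% belongs to *Gsdmc3* and *Gsdmc4*, and of the *Cyp2c68* sum 57.1% to *Cyp2c68*, so these sums too are in part set by how the genes were chosen. In the untreated libraries the same 3 genes also fill most of the sum over all alpha-defensins. In the butyrate libraries the alpha-defensins outside them gave 175 of 276 counts on day 2 and 107 of 180 on day 3. The differences of those outside genes were 0.96 and 0.18.

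**Figure D4:**
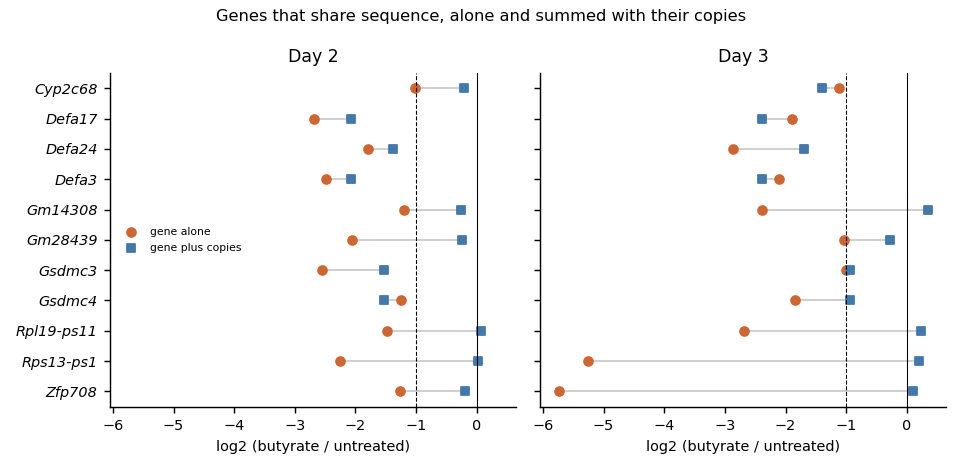
Log2 of butyrate over untreated CPM on day 2 and day 3 for the 11 genes that share at least 50% of their sequence words with other genes, as the gene alone (orange circles) and summed with its copies (blue squares). The sums of *Rps13-ps1*, *Rpl19-ps11*, *Gm14308*, *Zfp708* and *Gm28439* lie right of the dashed threshold of -1 on both days. Those of the 3 defensins consist mostly of the same 3 genes, so their place left of it follows from how the genes were chosen.

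By cell type and pathway, 8 of the 47 genes were on 6 of 26 gene lists, and 20 lists held none of them. The lists had 468 measured genes in all, of which these 8 were 1.71%, beside 0.399% of all measured genes. The lists were chosen with earlier results of these data known, so nothing is read from that difference. Among 16 measured goblet cell genes 2 (*Retnlb* and *Capn9*) were 2-fold lower on both days. In all 2 were so on day 2 and 5 on day 3, beside 1.61% and 1.5% of all measured genes. On both days 11 were below 0, beside 27.7%, with medians of -0.45 and -0.68. The mucin *Muc2* was at -0.48 [-0.50 to -0.47] and -0.81 [-0.83 to -0.80], the lineage factor *Spdef* at -0.43 and -0.45, *Agr2*, which folds mucin, at -0.36 and -0.75, and *Spink4* at -0.00 and 0.09. The goblet genes that passed on day 3 only were *Zg16*, a lectin of the mucus (-0.66 and -2.48), *Clca1*, a mucus protease (0.61 and -2.20), and *Fcgbp*, a mucus component (0.02 and -1.06). *Tff3*, a trefoil peptide, was higher on day 2 (0.78) and lower on day 3 (-0.59). Among 8 measured deep crypt secretory and Paneth cell genes 2 (*Defa17* and *Defa24*) passed on both days, 4 (these included) were below 0 on both days, beside 27.7% of all measured genes, and the medians were -0.41 and -0.20. The other 6 were *Kit*, a receptor of deep crypt secretory cells (-0.93 and -0.53), *Itln1* (-0.21 and -1.09), *Mmp7* (-0.60 and 0.19), lysozyme (*Lyz1*, 0.11 and 0.13), the phospholipase *Pla2g2a* (0.81 and 0.87) and *Reg4* (0.24 and 1.11). Of 21 measured antimicrobial, oxidant and inflammatory genes, *Reg3b* alone passed on both days, beside 0.399% of all measured genes. In all 4 passed on day 2 and 2 on day 3, beside 1.61% and 1.5%, and the list's medians were 0.00 and -0.12. The 20 lists without any of the 47 had medians between -0.49 and 0.53 on day 2 and between -0.91 and 0.53 on day 3. They included enteroendocrine transcription factors (13 measured, medians -0.49 and -0.43), of which 10 were below 0 on both days, beside 27.7% of all measured genes. Of 35 measured xenobiotic and steroid metabolism genes (medians 0.23 and -0.61), 9 were 2-fold lower on day 3 (beside 1.5% of all measured genes) and 1 on day 2 (beside 1.61%). The others included crypt stem cell genes (17 measured, medians 0.01 and 0.43), cell cycle genes (23 measured, 0.06 and 0.37), colonocyte genes (19 measured, 0.31 and -0.48), tuft cell genes (7 measured, -0.23 and -0.91) and Notch pathway genes (18 measured, -0.12 and 0.02).

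Relatives of the 47 genes were then counted. In 22 families that hold 26 of the genes, 60 relatives outside the 47 were measured. Of these, 4 were 2-fold lower on day 2 (*Capn8*, *Gsdmc2*, *Reg3g* and *Id2*), which is 6.67%, beside 1.61% of all measured genes. On day 3 there were 3 (*Cyp2c65*, *Cyp2c69* and *Rgs17*), or 5.0%, beside 1.5%. None can be so on both days, since it would then be among the 47. The families and relatives were chosen after their values were seen, so nothing is read from these shares. *Gsdmc3* shares 54.0% of its words with *Gsdmc2*, and *Cyp2c68* 33.5% with *Cyp2c69*, so the split of reads between them is uncertain. The medians of the 60 were 0.01 and -0.04, near those of all measured genes, and 20 (33.3%) were below 0 on both days, beside 27.7% of all measured genes. By position, 3 groups of the 47 lay within 500 kb of each other, namely the defensins, *Cd200* with *Gm609*, and the *Gsdmc* pair. Near *Cd200* and *Gm609*, *Slc35a5* (0.07 and -0.18) and *Atg3* (-0.08 and -0.23) were close to their untreated levels, *BC016579* was at -0.53 and -0.48 and *Phldb2* at -0.15 and 0.45. *Gm16011*, whose span lies within that of *Gm609*, had 80 and 48, then 50 and 36 counts (-0.89 and -0.28).

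**Figure D5:**
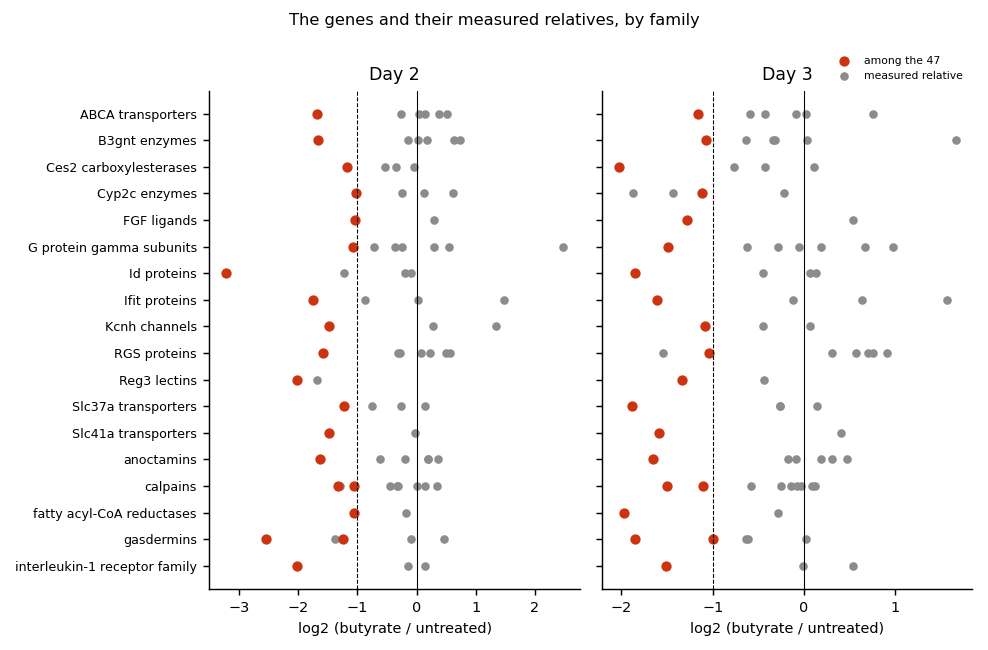
Log2 of butyrate over untreated CPM on day 2 and day 3 for the members of the 18 families with a measured relative, with genes among the 47 in red and measured relatives outside the 47 in grey. The dashed line is the threshold of -1. Most grey points lie near 0, and the 4 on day 2 and 3 on day 3 at or left of the dashed line are the relatives named in the text, with *Capn8* partly under *Capn9* on day 2.

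Levels were also compared between the days within each kind of culture. These comparisons use the libraries that chose the genes. From day 2 to day 3 without butyrate, the median of the 47 genes was 0.05 (all measured genes -0.08). At least 2-fold higher on day 3 were 2 genes, *Gm28439* (1.45) and *Gm2115* (1.09), where 0.612% of measured genes were. At least 2-fold lower were 2, *Rps13-ps1* (-1.64) and *Zfp708* (-1.01), beside 1.10% of measured genes. With butyrate the median was -0.02 (all measured genes -0.04), 5 genes were at least 2-fold higher on day 3 (1.53% of measured genes) and 8 at least 2-fold lower (2.90%). The 5 were *Gm28439* (2.47), *Gsdmc3* (2.09), *Hao2* (1.70), *Reg3b* (1.38) and *Id4* (1.15). The 8 were *Zfp708* and *Rps13-ps1*, both at 0 counts on day 3, *Retnlb* (-2.33), *Gm14308* (-1.45), *Lrat* (-1.39), *Gm1123* (-1.35), *Rpl19-ps11* (-1.30) and *Defa24* (-1.12).

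The size of the butyrate difference was larger on day 3 in 24 genes and on day 2 in 23. In 16 genes the counting intervals of the 2 days did not overlap. Of these, 10 were lower by more on day 3 (*Retnlb*, *Rps13-ps1*, *Zfp708*, *Gm1123*, *Defa24*, *Rpl19-ps11*, *Gm2115*, *Lrat*, *Ces2a* and *Far2*) and 6 by more on day 2 (*Gm28439*, *A4gnt*, *B3gnt5*, *Hao2*, *Gm609* and *Gsdmc3*). Whether these differences between days exceed the variation between cultures was not tested, as each day had 1 culture per condition. The share of all measured genes whose intervals do not overlap between the days was not counted, so nothing is read from the 16. For the other genes, *Ano7*, *ccdc198*, *Ramp1* and *Sv2c* among them, the intervals of the 2 days overlapped.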

How the data were processed

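RNA was enriched for poly-A and sequenced from TruSeq libraries of colonic organoids, 1 library for each of 4 conditions. The authors deposited whole-number counts per gene. They quantified reads with kallisto 0.44.0 and used tximport to reach gene level. The submitters' processing notes name GRCm38.p6. Hence the deposited counts are rounded estimates without normalisation, and kallisto divides reads between near-identical copies by its own model. Groups were taken from the sample labels. Library totals were 20790225 to 24207840 counts, where 3 counts, the floor used for a gene at 0, were 0.124 to 0.144 CPM.

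CPM, log2 differences with a pseudocount of 0.05 CPM and exact Clopper-Pearson intervals (95%) were computed with numpy 2.4.6, scipy 1.17.1 and pandas 2.3.3 (Python 3.11.15), and checked on simulated data. Alternative scalings came from DESeq2 1.42.0 and edgeR 4.0.16 in R 4.3.3. No model with p-values was fitted. Positions, biotypes and 31-base words came from GENCODE vM21 (GRCm38), in which all 47 genes were found, and promoters from RefSeq (GRCm38.p6). A copy was a gene with at least 5% of a gene's words.

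The genes and the lists were chosen with earlier results of these data known. Genes were named by rule as the 10 with the largest smaller fall, the 8 with the highest mean CPM, those on a gene list, the 3 nearest the threshold on each side, those sharing a family root or within 500 kb of each other, the 3 that moved most each way between untreated libraries, and the 3 with the largest difference between days each way. This named 27 of the 47 genes and 3 outside them. All other genes, the roles, families, relatives and the printed promoters were chosen after their values were seen.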

Additional observations from a re-analysis of the deposited data

Results flagged for a closer look

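Of the 47 genes, 2 moved in opposite directions from day 2 to day 3 in the untreated and the butyrate cultures, with both counting intervals clear of 0. *Retnlb*, the antimicrobial protein of goblet cells, was higher on day 3 without butyrate (log2 0.92) and lower on day 3 with it (-2.33). *Gm609*, a protein-coding gene beside *Cd200*, was slightly lower on day 3 without butyrate (-0.27) and slightly higher with it (0.36). The difference was not tested in either gene, since each day had 1 library per condition. How many of all measured genes moved in opposite directions was not counted, so nothing is read from the 2.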

How the results depend on the processing

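The number of genes at least 2-fold lower on both days was 47, and all 47 remained among the 52 found with DESeq2 size factors, the 52 with TMM factors and the 57 with totals that leave out the mitochondrial genome. It was 68 with a minimum mean of 1 CPM. It moved by more than 1.5 times with the pseudocount, the level minimum and the threshold: 28 genes with a pseudocount of 1 CPM, 26 with a minimum mean of 5 CPM, 291 with no minimum, 116 where the minimum was instead a count above 10 in 2 or more libraries, 174 at 1.5-fold, 14 at 3-fold, and 20 where both counting intervals lay wholly at or below -1. With 2 alternatives chosen after seeing the data, 44 remained without pseudogenes and 36 without genes that share 50% or more of their words. The median difference of the genes ranged from -1.66 to -1.34 on day 2 and from -1.67 to -1.38 on day 3 over the scalings and pseudocounts run. Of 240 recomputed values of named genes, 0 changed sign and 19 moved beyond their counting interval, 17 of them with the pseudocount of 1 CPM. With 21 of the 47 genes under a mean of 5 CPM, counting error limits their fold changes. Butyrate and untreated libraries were compared within each day throughout. A fit with day as a block, which would leave 1 residual degree of freedom, was not run, since the same contrast chose the genes. No library was left out, each group being 1 library.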
